A study of Mus musculus with 8 samples.

Results

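The 37 genes described here encode the glycolytic pathway and the transcriptional response to low oxygen. They were chosen by name from 34736 named mouse genes with a value on the arrays. Among them, 25 encode glucose transporters, glycolytic enzymes or enzymes that set the fate of pyruvate, and 12 are oxygen-sensing prolyl hydroxylases or known targets of hypoxia-inducible factor (HIF). All 37 were among the 25892 genes tested, and the probe used for each was well above background on all 8 arrays.

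RNA was measured in mouse embryonic stem (ES) cells in 4 groups of 2 biological replicates. These were cells heterozygous for Nkx2-5 R141C at day 6 of differentiation, wild-type cells at day 6, heterozygous R141C cells at day 0 and wild-type cells at day 0. Nkx2-5 is a homeobox transcription factor of heart progenitors, and the study asked how its mutation alters expression as ES cells differentiate toward the heart lineage. Day 6 cultures had been grown as embryoid bodies without LIF, for 2 days in hanging drops of 800 cells and 3 days in suspension, and were plated on gelatin at day 5 for 24 hours. The labels name no cell line or clone, so a difference between genotypes cannot be told apart from one between lines. They also give no oxygen level, and no group was labelled as hypoxic. Growth as embryoid bodies came with every day 6 sample, so time and culture form cannot be told apart either.

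Glycolysis splits glucose into pyruvate, which is reduced to lactate or passed to mitochondria. When oxygen is plentiful, prolyl hydroxylases mark the HIF alpha subunits for destruction by the von Hippel-Lindau protein. When oxygen is scarce, the alpha subunits persist, pair with Arnt and bind hypoxia response elements beside their targets, which include most glycolytic genes. Pluripotent stem cells are known for a high glycolytic flux, and heart cells turn to oxidative metabolism as they mature.

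The core of a hypoxia response element reads ACGTG or GCGTG. It was searched on both strands in promoter windows of 300 bases, 250 before and 50 after each RefSeq start site on GRCm38.p6. A window existed for 35 of the 37 genes, and at least 1 core lay in a window of 31 of them (88.6%), against 46.7% of all 27025 genes in the same table. Windows of the set were also richer in G and C, with a median of 61.3% against 52.7% for all windows, and both cores hold a CG. A core was present in 12 of the 14 genes with a window that were higher at day 6 in both genotypes, and in all 16 that were higher in neither. The longer palindrome CACGTG, which holds a core on each strand, was present in 4 genes of the set (11.4%), against 8.09% of all genes. The 170 bases before the start of 4 genes whose signal was higher at day 6 and of 2 hypoxia targets, Car9 and Kdm3a, whose signal was not, are given here to show where the cores lie. Capitals mark the cores, which read CACGT or CACGC where they lie on the other strand.
P4ha1: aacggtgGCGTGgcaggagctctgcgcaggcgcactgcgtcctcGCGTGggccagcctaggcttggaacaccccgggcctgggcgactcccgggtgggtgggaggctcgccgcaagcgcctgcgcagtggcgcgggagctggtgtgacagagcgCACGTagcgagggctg
Bnip3: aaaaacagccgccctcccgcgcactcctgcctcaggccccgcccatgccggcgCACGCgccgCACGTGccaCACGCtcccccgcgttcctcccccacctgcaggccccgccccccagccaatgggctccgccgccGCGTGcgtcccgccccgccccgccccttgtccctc
Egln1: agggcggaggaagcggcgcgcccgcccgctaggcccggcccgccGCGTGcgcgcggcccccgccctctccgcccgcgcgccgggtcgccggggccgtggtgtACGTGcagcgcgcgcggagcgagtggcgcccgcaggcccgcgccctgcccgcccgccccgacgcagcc
Pgk1: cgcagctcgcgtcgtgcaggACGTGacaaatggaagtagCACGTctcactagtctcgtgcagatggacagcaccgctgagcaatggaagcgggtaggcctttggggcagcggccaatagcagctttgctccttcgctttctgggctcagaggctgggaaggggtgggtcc
Car9: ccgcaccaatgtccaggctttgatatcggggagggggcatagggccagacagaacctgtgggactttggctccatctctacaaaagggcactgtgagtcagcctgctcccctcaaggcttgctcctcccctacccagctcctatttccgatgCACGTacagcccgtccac
Kdm3a: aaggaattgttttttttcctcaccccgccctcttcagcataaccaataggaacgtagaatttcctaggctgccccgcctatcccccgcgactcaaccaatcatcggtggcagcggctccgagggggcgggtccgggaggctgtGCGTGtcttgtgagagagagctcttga
The stretch of P4ha1 lies at chr10:59323126-59323295 on the plus strand and that of Pgk1 at chrX:106186930-106187099 on the plus strand. Those of Bnip3 and Egln1 lie on the minus strand at chr7:138909507-138909676 and chr8:124949255-124949424. Car9 is at chr4:43506856-43507025 on the plus strand and Kdm3a at chr6:71632918-71633087 on the minus strand. P4ha1 held 3 cores in this stretch, Bnip3 5 and Egln1 and Pgk1 2 each, while Car9 and Kdm3a held 1 each. These genes were picked for display. Among the others, Tpi1 and Eno2, higher in both genotypes, had 0 cores in their windows, and a window of Ldha, which did not pass by its brightest probe, had 7. A match is a description of the letters and does not show binding.

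Between 55.75% and 70.51% of probes were well above background, and each array's 75th percentile signal lay between 939 and 1851. The arrays came from 1 slide, with day 6 in 1 column and day 0 in the other, so slide position and group cannot be told apart. The samples differed in cell type markers between the days. Log2 of the summed signal of 8 embryonic red cell markers lay between 7.55 and 9.38 at day 6 and between -0.63 and 0.35 at day 0, and that of 7 visceral endoderm markers between 5.65 and 7.04 at day 6 and between 0.73 and 1.1 at day 0. Summed signal of 7 endothelial markers was 5.91 to 6.94 at day 6 and 4.41 to 4.69 at day 0, while that of 6 neural markers was 2.88 to 4.37 at day 6 and 5.34 to 6.05 at day 0. Pluripotency markers, 10 in number, summed to 6.36 to 7.28 at day 6 and 8.92 to 9.52 at day 0. The 10 cardiomyocyte markers summed to 3.30 and 7.10 in the R141C replicates at day 6, against 8.46 and 8.80 in wild type at day 6, and to 2.62 to 5.29 at day 0. At day 6, all 8 red cell markers were called higher in both genotypes, visceral endoderm markers 7 of 7 in R141C and 6 of 7 in wild type, where the other 1 was called lower, endothelial markers 4 of 7 in R141C and 5 of 7 in wild type, and cardiomyocyte markers 1 of 10 in R141C and 6 of 10 in wild type. Pluripotency markers were called lower for 7 of 10 in R141C, where 1 was called higher, and for 8 of 10 in wild type, and neural markers for 4 of 6 in R141C and 3 of 6 in wild type. The part of these cell types in the results below was not tested. In bulk RNA, fewer cells of a type and less RNA per cell cannot be told apart.

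Many genes of the set were higher at day 6 than at day 0, in both genotypes. In R141C cells, 18 of the 37 genes were higher at day 6 than at day 0 and 0 were lower, where 7.59% of all genes tested were higher and 8.07% lower. In wild-type cells 17 were higher and 0 lower, where 11.1% of all genes were higher and 12.9% lower. The median log2 change of the 37 genes was 0.89 in R141C cells, against -0.03 over all genes, and 0.81 in wild-type cells, against -0.12 over all genes. Aligning arrays on their medians in place of their 75th percentiles moved the wild-type median of all genes to 0.00, and that of the set to 0.93. All calls are from limma with Benjamini-Hochberg adjustment over the 25892 genes and an adjusted p under 0.05. With 2 arrays a group, p-values measure only the spread between these samples, and the number of arrays limits the precision.

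**Figure D1:**
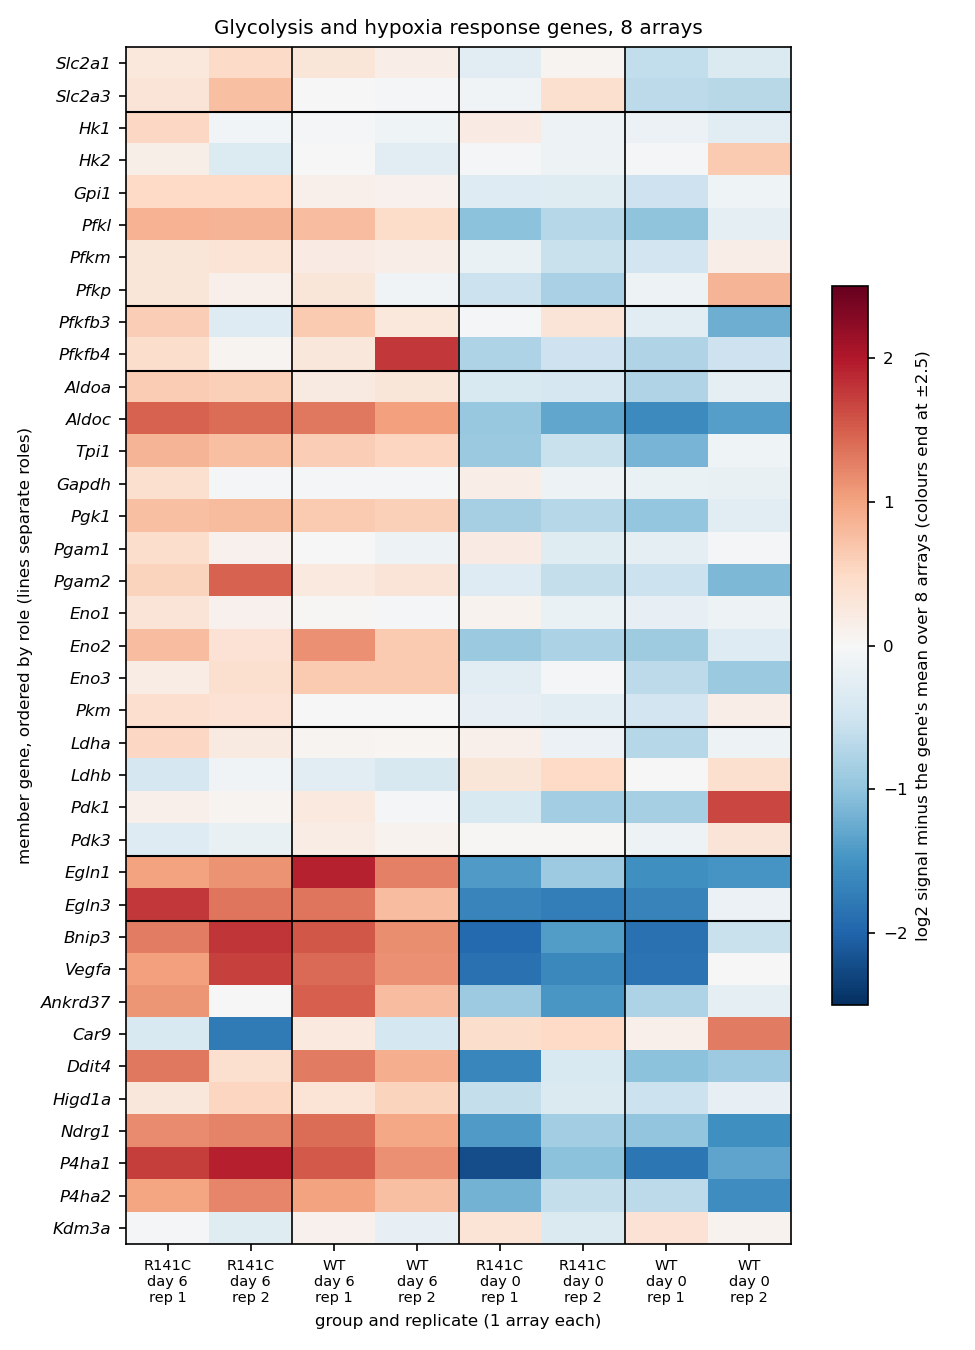
Log2 signal of the 37 genes (down the page, ordered by role) on each of the 8 arrays (across), as the difference from the gene's own mean, in colours that end at ±2.5. The Egln1 to Vegfa block and P4ha1 are red on the 4 day 6 arrays and mostly blue at day 0, and wild-type replicate 2 at day 0 is paler than its partner in many genes.

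Calls were shared between the genotypes more often than not. There were 15 genes higher in both, which is 83.3% of the R141C calls and 88.2% of the wild-type calls, and 34 of the 37 changes had the same sign. How often calls were shared or signs agreed over all genes was not counted, so neither count is shown to be particular to this set. Gpi1, Aldoa and Pgam2 passed in R141C only and Pfkfb4 and Eno3 in wild type only, and 17 genes passed in neither. These 2 comparisons share no array but share 1 estimate of the spread. In 30 genes the R141C arrays did not overlap between the days, against 56% of all genes, and in 28 the wild-type arrays did not overlap, against 71.3% of all genes. Leaving out 1 array at a time gave 6 to 16 calls in each genotype, fewest without R141C replicate 1 at day 0 in R141C cells and without wild-type replicate 1 at day 6 in wild-type cells.

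**Figure D2:**
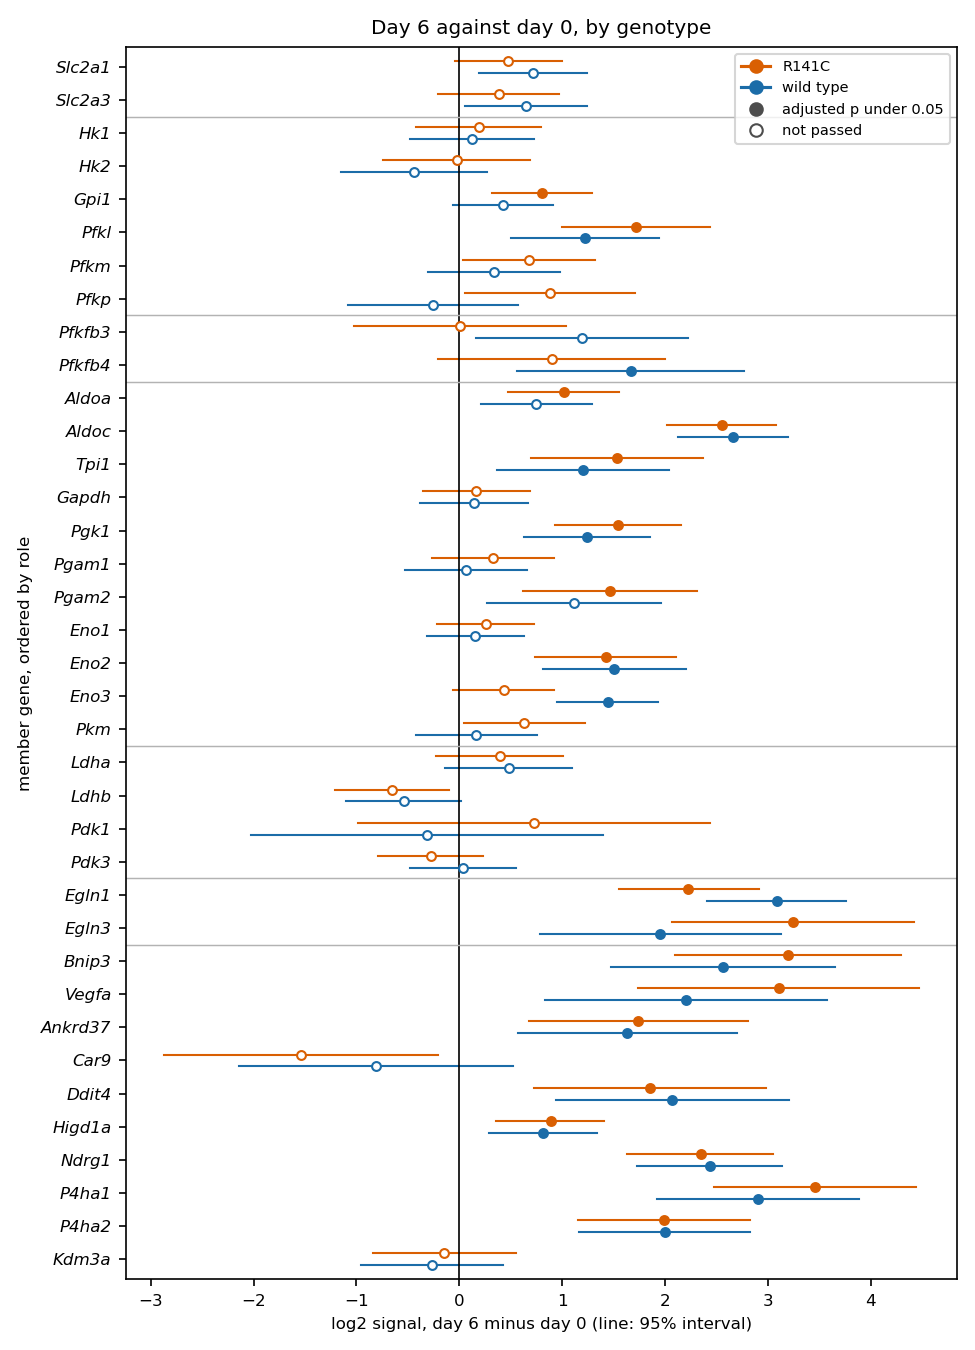
Log2 change at day 6 against day 0 (across) of each gene (down the page), in R141C above wild type, with lines for 95% intervals and filled points for adjusted p under 0.05. The 10 filled pairs among the 12 genes from Egln1 down lie between 0.81 and 3.46, while Car9 and Kdm3a lie below 0 with open points.

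The oxygen sensors and hypoxia targets had larger changes than the glycolytic genes. Of these 12 genes 10 were higher at day 6 in R141C cells, with a median log2 change of 2.11, and 10 were higher in wild-type cells, with a median of 2.03. The same 10 genes passed in both. Over all genes tested, 7.59% were higher in R141C cells and 11.1% in wild-type cells. The day 6 and day 0 arrays of these 10 genes did not overlap in either genotype. Over all genes, 56% did not overlap in R141C cells and 71.3% in wild-type cells. The 10 genes were picked by their calls, so the lack of overlap adds no support to those calls.

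Egln1 (Phd2), the main prolyl hydroxylase that marks HIF for destruction, is itself a HIF target. On a scale where 0 is the 75th percentile of an array, its log2 signal was -0.99 and -0.87 in R141C cells at day 6, against -3.41 and -2.90 at day 0. In wild-type cells it was -0.08 and -0.73 at day 6, against -3.52 and -3.47 at day 0. All 4 day 6 arrays lay above all 4 day 0 arrays. Egln1 was 4.68-fold higher at day 6 in R141C cells (log2 change 2.23 ± 0.29 SE, adjusted p = 0.00484) and 8.49-fold higher in wild-type cells (3.09 ± 0.29, adjusted p = 0.00106). Egln3 (Phd3), a second hydroxylase under HIF control, was at 2.80 and 2.37 in R141C cells at day 6, against -0.62 and -0.69 at day 0. In wild-type cells Egln3 was at 2.36 and 1.80 at day 6, against -0.64 and 0.89 at day 0. Here the day 0 arrays agreed except for wild-type replicate 2, which stood well above the other 3. Egln3 was 9.48-fold higher at day 6 in R141C cells (3.25 ± 0.49, adjusted p = 0.00826) and 3.88-fold higher in wild-type cells (1.96 ± 0.49, adjusted p = 0.0312).

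Collagen prolyl 4-hydroxylases hydroxylate prolines of collagen, which stabilizes its triple helix, and are induced by HIF in hypoxic tissue. P4ha1 encodes a catalytic alpha subunit, and its log2 signal was 0.91 and 1.13 in R141C cells at day 6, against -3.04 and -1.84 at day 0. In wild-type cells P4ha1 was at 0.71 and 0.33 at day 6, against -2.63 and -2.13 at day 0. The days were far apart in both genotypes, with an 11-fold higher signal in R141C cells (log2 change 3.46 ± 0.41 SE, adjusted p = 0.0038) and a 7.46-fold higher signal in wild-type cells (2.90 ± 0.41, adjusted p = 0.00451). P4ha2, a second alpha subunit, was at 4.34 and 4.58 in R141C cells at day 6, against 2.18 and 2.76 at day 0. In wild-type cells P4ha2 was at 4.37 and 4.11 at day 6, against 2.69 and 1.80 at day 0. The 4 day 6 arrays lay close together above the day 0 arrays, with a 3.98-fold higher signal in R141C cells (1.99 ± 0.35, adjusted p = 0.0137) and a 3.99-fold higher signal in wild-type cells (2.0 ± 0.35, adjusted p = 0.00951).

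Bnip3, a mitochondrial protein that promotes removal of mitochondria by autophagy, had a log2 signal of 5.36 and 5.86 in R141C cells at day 6, against 2.15 and 2.69 at day 0. In wild-type cells Bnip3 was at 5.63 and 5.24 at day 6, against 2.22 and 3.53 at day 0. The groups were far apart although wild-type replicate 2 was again the highest day 0 array. Bnip3 was 9.17-fold higher at day 6 in R141C cells (log2 change 3.20 ± 0.46 SE, adjusted p = 0.00688) and 5.89-fold higher in wild-type cells (2.56 ± 0.46, adjusted p = 0.00992). Vegfa, the secreted growth factor for blood vessels, was at 2.13 and 2.80 in R141C cells at day 6, against -0.77 and -0.51 at day 0. In wild-type cells Vegfa was at 2.52 and 2.23 at day 6, against -0.75 and 1.1 at day 0. Again wild-type replicate 2 stood apart at day 0, and the wild-type groups still did not overlap. Vegfa was 8.60-fold higher at day 6 in R141C cells (3.10 ± 0.57, adjusted p = 0.0161) and 4.60-fold higher in wild-type cells (2.20 ± 0.57, adjusted p = 0.0348).

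Ndrg1, a stress-response protein induced by hypoxia, had a log2 signal of 3.59 and 3.64 in R141C cells at day 6, against 1.0 and 1.55 at day 0. In wild-type cells Ndrg1 was at 3.81 and 3.38 at day 6, against 1.43 and 0.88 at day 0. Day 6 lay far above day 0 in every array. Ndrg1 was 5.08-fold higher at day 6 in R141C cells (log2 change 2.35 ± 0.30 SE, adjusted p = 0.00473) and 5.41-fold higher in wild-type cells (2.44 ± 0.30, adjusted p = 0.00269). Ddit4 (Redd1), which restrains mTORC1 under stress, was at 7.26 and 6.34 in R141C cells at day 6, against 4.32 and 5.57 at day 0. In wild-type cells Ddit4 was at 7.25 and 6.85 at day 6, against 4.92 and 5.04 at day 0. The R141C replicates were more spread than the wild-type ones at both days, and no day 6 array reached down to a day 0 array. Ddit4 was 3.62-fold higher at day 6 in R141C cells (1.86 ± 0.47, adjusted p = 0.043) and 4.20-fold higher in wild-type cells (2.07 ± 0.47, adjusted p = 0.0227).

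Ankrd37, an ankyrin repeat protein induced by HIF, had a log2 signal of 2.78 and 1.68 in R141C cells at day 6, against 0.75 and 0.22 at day 0. In wild-type cells Ankrd37 was at 3.16 and 2.44 at day 6, against 0.90 and 1.43 at day 0. Day 6 arrays were above day 0 arrays within each genotype, with a 3.34-fold higher signal in R141C cells (log2 change 1.74 ± 0.45 SE, adjusted p = 0.0444) and a 3.10-fold higher signal in wild-type cells (1.63 ± 0.45, adjusted p = 0.0406). Higd1a, a small mitochondrial protein, made a smaller change of 1.85-fold in R141C cells (adjusted p = 0.0404) and 1.75-fold in wild-type cells (adjusted p = 0.04).

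Car9 and Kdm3a did not follow the other targets. Car9, a carbonic anhydrase of the cell surface and a widely used hypoxia marker, averaged -4.71 ± 0.99 in R141C cells at day 6 and -3.18 ± 0.04 at day 0 (log2 signal, SD, n = 2 each). In wild-type cells Car9 averaged -3.74 ± 0.47 at day 6 and -2.93 ± 0.84 at day 0. The log2 change of Car9 was -1.54 in R141C cells (adjusted p = 0.117) and -0.81 in wild-type cells (adjusted p = 0.341). Kdm3a, a histone H3 lysine demethylase induced by HIF, changed by -0.15 in R141C cells (95% interval -0.84 to 0.55) and by -0.27 in wild-type cells (-0.96 to 0.43), neither of which passed.

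**Figure D3:**
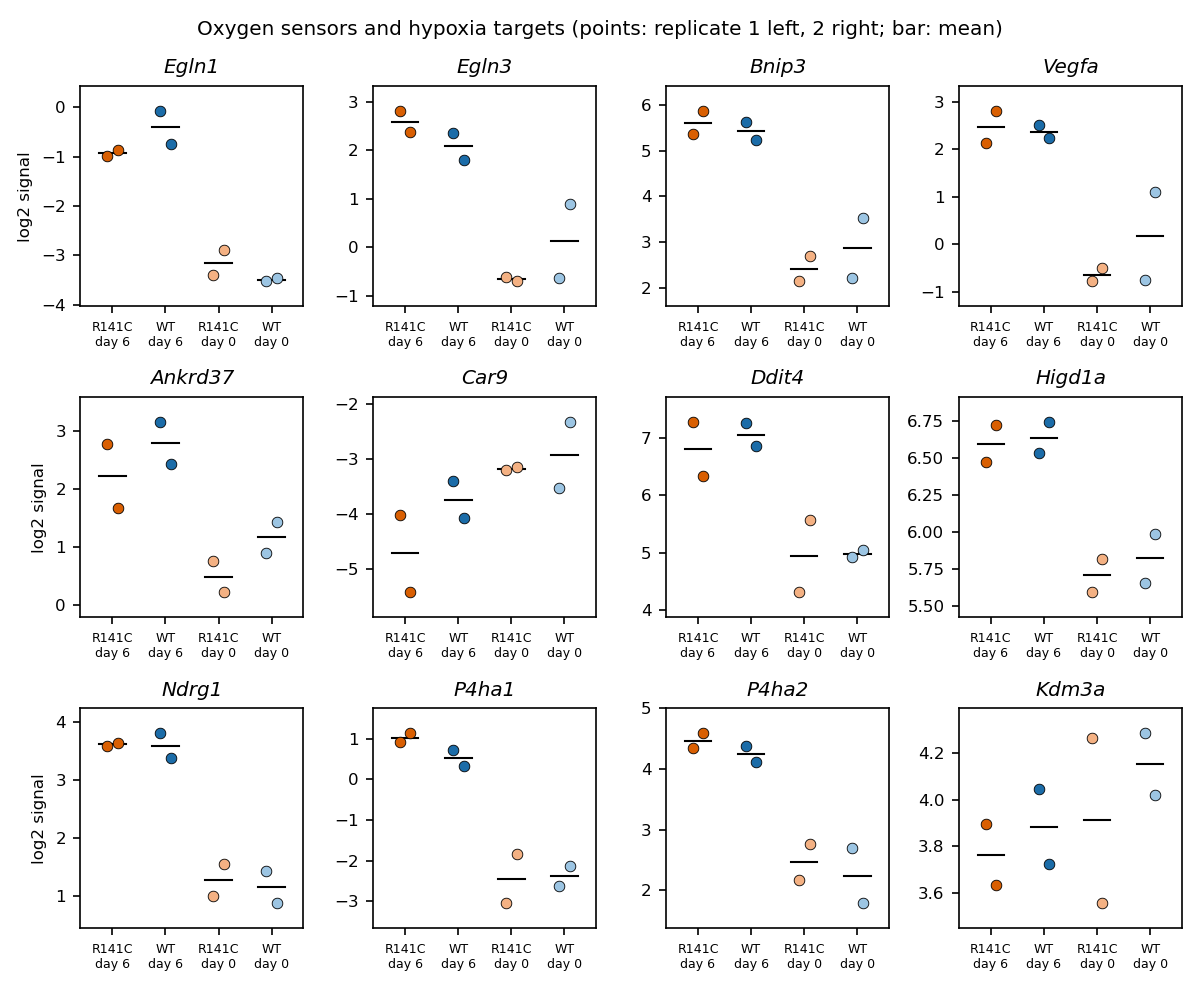
Log2 signal (0 is the 75th percentile of the array) of the 12 oxygen sensors and hypoxia targets on each array, for R141C and wild type at day 6 and then at day 0, with bars at the mean of 2 replicates. In 10 panels all day 6 points of a genotype lie above its day 0 points, and Car9 and Kdm3a are the exceptions. Wild-type replicate 2 at day 0 is the highest day 0 point for Egln3 (0.89), Bnip3 (3.53) and Vegfa (1.1).

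Fewer of the glycolytic genes passed. Of the 25 glycolysis genes 8 were higher at day 6 in R141C cells, with a median log2 change of 0.63, and 7 in wild-type cells, with a median of 0.48. None was lower in either. Over all genes tested, 7.59% were higher in R141C cells and 11.1% in wild-type cells, which also applies to the steps below. In the steps from fructose 1,6-bisphosphate to pyruvate, 6 of 11 genes passed in R141C cells and 5 of 11 in wild-type cells. Of the 2 genes for fructose 2,6-bisphosphate, 0 passed in R141C cells and 1 in wild-type cells. In the steps before it, from glucose to fructose 1,6-bisphosphate, 2 of 6 passed in R141C cells and 1 of 6 in wild-type cells. Neither glucose transporter passed in either genotype.

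Glucose enters through Slc2a1 (Glut1) and Slc2a3 (Glut3). Slc2a1 averaged 7.25 ± 0.15 in R141C cells at day 6 and 6.77 ± 0.24 at day 0 (SD, n = 2 each), a log2 change of 0.48 (adjusted p = 0.195). In wild-type cells Slc2a1 averaged 7.11 ± 0.09 at day 6 and 6.40 ± 0.18 at day 0, a change of 0.72 (adjusted p = 0.0561). Slc2a3 changed by 0.38 in R141C cells (adjusted p = 0.347) and by 0.65 in wild-type cells (adjusted p = 0.104). All 4 values were above 0 without passing.

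Among the first enzymes, Pfkl passed in both genotypes. Pfkl is the liver form of phosphofructokinase, the committed step of glycolysis, and was 3.30-fold higher at day 6 in R141C cells (log2 change 1.72 ± 0.30 SE, adjusted p = 0.0133) and 2.33-fold higher in wild-type cells (1.22 ± 0.30, adjusted p = 0.0291). The muscle form Pfkm changed by 0.68 in R141C cells (adjusted p = 0.142) and by 0.34 in wild-type cells (adjusted p = 0.409). The platelet form Pfkp had a log2 signal of 2.28 and 2.10 in R141C cells at day 6, against 1.44 and 1.17 at day 0, and of 2.27 and 1.89 in wild-type cells at day 6, against 1.85 and 2.83 at day 0. Its change did not pass, at 0.89 in R141C cells (adjusted p = 0.138) and -0.26 in wild-type cells (adjusted p = 0.638). Gpi1, which turns glucose 6-phosphate into fructose 6-phosphate, rose 1.74-fold in R141C cells (adjusted p = 0.0432) and had a change of 0.43 in wild-type cells (adjusted p = 0.179). The hexokinases, which trap glucose in the cell, showed no call: Hk1 changed by 0.19 in R141C cells and 0.12 in wild-type cells, and Hk2 by -0.03 in R141C cells and -0.44 in wild-type cells.

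Pfkfb3 and Pfkfb4 make fructose 2,6-bisphosphate, the strongest activator of phosphofructokinase. The log2 signal of Pfkfb4 was 0.69 and 0.33 in R141C cells at day 6, against -0.51 and -0.26 at day 0, a change of 0.90 that did not pass (adjusted p = 0.247). In wild-type cells Pfkfb4 was at 0.53 and 2.03 at day 6, against -0.50 and -0.27 at day 0, and was 3.17-fold higher (log2 change 1.67 ± 0.46 SE, adjusted p = 0.0427). Wild-type replicate 2 was far above its partner at day 6, and without it the change was 0.92 and did not pass. Pfkfb3 changed by 0.01 in R141C cells (adjusted p = 0.99) and by 1.19 in wild-type cells (adjusted p = 0.092).

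The steps after phosphofructokinase held the largest glycolytic change. Aldoc, the brain form of aldolase, which cleaves fructose 1,6-bisphosphate, had a log2 signal of 6.17 and 6.09 in R141C cells at day 6, against 3.76 and 3.40 at day 0. In wild-type cells Aldoc was at 6.02 and 5.72 at day 6, against 3.11 and 3.31 at day 0. Aldoc was 5.85-fold higher at day 6 in R141C cells (log2 change 2.55 ± 0.22 SE, adjusted p = 0.0014) and 6.32-fold higher in wild-type cells (2.66 ± 0.22, adjusted p = 0.000779). The days were far apart and replicates close in every group. Aldoa, the widespread form, rose 2.02-fold in R141C cells (1.02 ± 0.23, adjusted p = 0.0281) and changed by 0.75 in wild-type cells (adjusted p = 0.0541).

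Tpi1 and Pgk1, which act on triose phosphates and make the first ATP of the pathway, passed in both genotypes. Tpi1 rose 2.90-fold in R141C cells (adjusted p = 0.0308) and 2.31-fold in wild-type cells (adjusted p = 0.0492). Pgk1 averaged 8.19 ± 0.02 in R141C cells at day 6 and 6.65 ± 0.08 at day 0, and 8.04 ± 0.05 in wild-type cells at day 6 and 6.80 ± 0.48 at day 0 (log2 signal, SD, n = 2 each). It rose 2.90-fold in R141C cells (adjusted p = 0.0113) and 2.36-fold in wild-type cells (adjusted p = 0.016). Gapdh, the oxidizing step between them and a common reference gene, was nearly level at 8.71 and 8.30 in R141C cells at day 6, against 8.48 and 8.20 at day 0. In wild-type cells Gapdh was at 8.29 and 8.28 at day 6, against 8.15 and 8.14 at day 0. Its log2 change was 0.17 in R141C cells (adjusted p = 0.649) and 0.14 in wild-type cells (adjusted p = 0.678), and these values became -0.12 and 0.00 after quantile normalization.

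Isozymes of the later steps differed in size of change, although differences between genes were not tested. Eno2, the neuronal enolase, rose 2.68-fold in R141C cells (log2 change 1.42 ± 0.29 SE, adjusted p = 0.0217) and 2.84-fold in wild-type cells (1.51 ± 0.29, adjusted p = 0.0125). Eno3, the muscle enolase, changed by 0.43 in R141C cells (adjusted p = 0.213) and rose 2.72-fold in wild-type cells (1.44 ± 0.21, adjusted p = 0.00459). Eno1, the widespread enolase, changed by 0.26 in R141C cells and 0.16 in wild-type cells, without a call. Pgam2, the muscle form of phosphoglycerate mutase, rose 2.76-fold in R141C cells (adjusted p = 0.0372) and changed by 1.11 in wild-type cells (adjusted p = 0.0647), while the widespread Pgam1 changed by 0.33 in R141C cells and 0.07 in wild-type cells. Pkm, the pyruvate kinase of both embryonic and muscle tissue, changed by 0.63 in R141C cells (adjusted p = 0.139) and by 0.17 in wild-type cells (adjusted p = 0.672).

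None of the 4 genes that set the fate of pyruvate passed in either genotype. Over all genes, 15.7% passed in R141C cells and 24% in wild-type cells. Ldha, which reduces pyruvate to lactate, changed by 0.39 in R141C cells (adjusted p = 0.361) and by 0.48 in wild-type cells (adjusted p = 0.228) by its brightest probe. Ldhb, the form typical of heart muscle, changed by -0.65 in R141C cells (adjusted p = 0.112) and by -0.54 in wild-type cells (adjusted p = 0.143). Pdk1 and Pdk3 phosphorylate and switch off pyruvate dehydrogenase, and Pdk3 changed by -0.28 in R141C cells and 0.03 in wild-type cells. Pdk1 had a log2 signal of 2.48 and 2.44 in R141C cells at day 6, against 1.99 and 1.48 at day 0. In wild-type cells Pdk1 was at 2.61 and 2.32 at day 6, against 1.53 and 4.02 at day 0. Wild-type replicate 2 at day 0 was thus the highest of all 8 arrays. Without that array the wild-type change of Pdk1 was 0.93 (adjusted p = 0.102), and without its partner -1.55 (adjusted p = 0.0274), where both arrays together gave -0.31 (adjusted p = 0.792).

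Pdk1 was the extreme of a wider gap between the wild-type replicates at day 0. In replicate 2, 28 of the 37 genes were higher than in replicate 1, by a median log2 difference of 0.41, while 49.4% of all genes were higher there and their median difference was -0.01. The difference exceeded 1 in size in 6 of the 37 genes, against 10.4% of all genes. The wild-type replicates at day 6 differed in the other direction, by less. There, 6 of the 37 genes were higher in replicate 2, against 50.6% of all genes, with a median log2 difference of -0.13. Without wild-type replicate 2 at day 0, 14 of the 37 genes were called higher in wild type. Without R141C replicate 1 at day 6, 10 were called higher in R141C.

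Several genes had more than 1 probe, and calls depended on the probe for some of them. The further probe of Higd1a changed by 0.62 in each genotype and did not pass (adjusted p = 0.19 in R141C cells and 0.154 in wild-type cells). The 2 further probes of Ldha both passed where its brightest did not. They changed by 1.63 (adjusted p = 0.0166) and 1.20 (adjusted p = 0.0347) in R141C cells, and by 1.14 (adjusted p = 0.0377) and 1.06 (adjusted p = 0.0387) in wild-type cells, with adjustment over 37889 probes. On mm9 the brightest Ldha probe lies at chr7:54110937-54110996 and the others at chr7:54103010-54103069 and chr7:54107294-54107353. The further probe of Pfkp rose in R141C cells by 1.05 (adjusted p = 0.0308), and in wild-type cells it changed by 0.66 (adjusted p = 0.0928), opposite in sign to the brightest Pfkp probe. The 7 Gapdh probes changed by -0.16 to 0.25 in R141C cells and by 0.07 to 0.27 in wild-type cells. Probes of Bnip3 changed by 3.18 to 3.33 in R141C cells and by 2.28 to 2.71 in wild-type cells, where the dimmest did not pass (adjusted p = 0.0527). The further probe of Tpi1 changed by 1.44 in R141C cells (adjusted p = 0.0534) and by 1.53 in wild-type cells (adjusted p = 0.0333). With adjustment over probes, the brightest Tpi1 probe had an adjusted p of 0.0315 in R141C cells and 0.0504 in wild-type cells. The further probe of P4ha1 was above background on only 6 of the 8 arrays, so the size of its change is uncertain. It changed by 3.61 in R141C cells (adjusted p = 0.00272) and by 3.19 in wild-type cells (adjusted p = 0.0026). On the same build the probe of P4ha1 lies at chr10:58835625-58835684, that of Bnip3 at chr7:146082760-146082819, that of Aldoc at chr11:78140198-78140257 and that of Vegfa at chr17:46154387-46154446. The files place the brightest Pgk1 probe on chromosome 3 and the further one on chromosome X, where the gene lies. The 2 share an unbroken run of 53 of 60 bases, so signal from a near-identical copy of Pgk1 cannot be told apart from the gene's own. The further probe changed by 1.57 in R141C cells and 1.27 in wild-type cells, close to the 1.54 and 1.24 of the brightest.

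**Figure D4:**
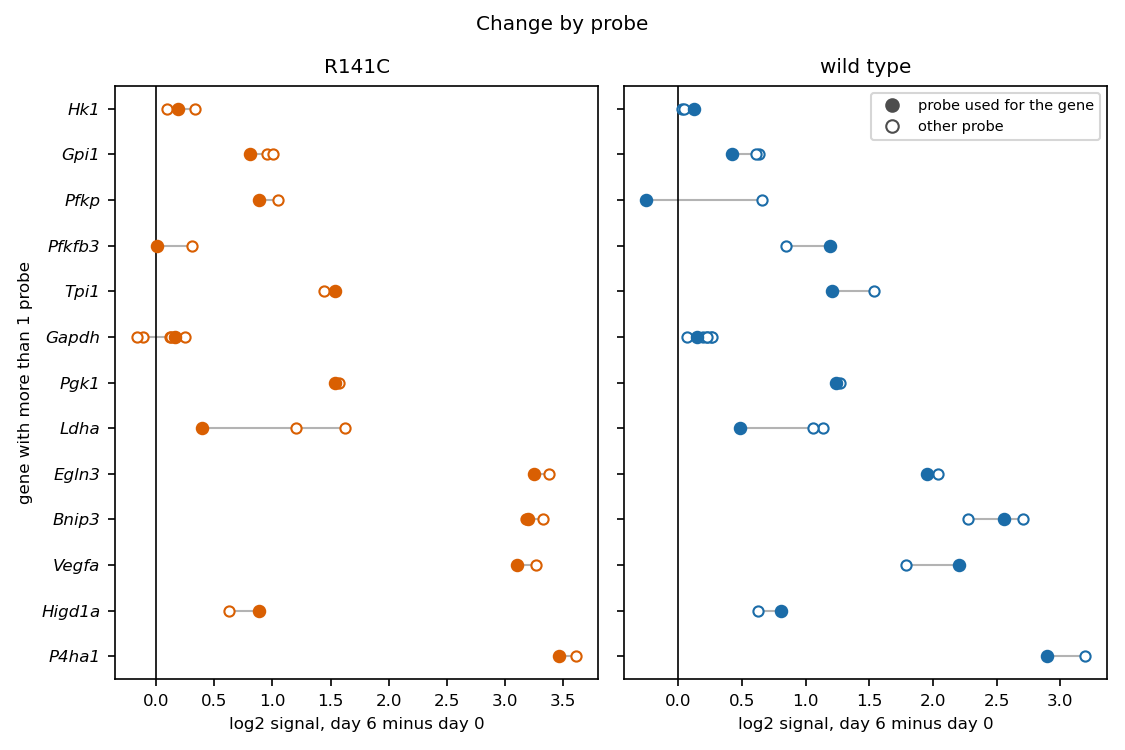
Log2 change at day 6 against day 0 (across) for every tested probe of the 13 genes with more than 1 (down the page), in R141C at left and wild type at right, with filled points for the probe used for the gene. Points of a gene mostly lie together, while the filled points of Ldha (0.39 and 0.48) sit left of its open ones, and the 2 points of Pfkp lie on opposite sides of 0 in wild type.

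Other genes of these pathways were read from lists of their own. Of 28 further glycolysis and gluconeogenesis genes tested, 7 were higher and 1 lower at day 6 in R141C cells, and 9 were higher and 1 lower in wild-type cells. Over all genes, 7.59% were higher and 8.07% lower in R141C cells, and 11.1% were higher and 12.9% lower in wild-type cells. Hkdc1, a hexokinase-like gene, rose by 5.80 in R141C cells (adjusted p = 0.000835) and by 4.94 in wild-type cells (adjusted p = 0.000741) on the log2 scale. G6pc3, a glucose 6-phosphatase, rose by 1.42 in R141C cells and 1.86 in wild-type cells on the log2 scale (adjusted p = 0.00855 and 0.00231). Fbp2, the muscle fructose bisphosphatase, which opposes phosphofructokinase, fell by 2.22 in R141C cells (adjusted p = 0.0375) and was at least 14.5-fold lower at day 6 in wild-type cells (adjusted p = 0.00358), where it was not well above background at day 6 and the fold is a lower bound.

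Genes of HIF itself were read in the same way. Of 9 HIF subunits and regulators, 0 passed in R141C cells by limma, where 15.7% of all genes passed. An unadjusted p under 0.05 was held by 1 of the 9, against 7900 of the 25892 genes tested. In wild-type cells 2 of the 9 were higher and 1 lower, where 24% of all genes passed. Hif1a, the subunit that gives the pathway its name and was singled out after its values were seen, changed by -0.22 in R141C cells (adjusted p = 0.683) and by 0.17 in wild-type cells (adjusted p = 0.735). Vhl, which tags HIF for destruction, changed by 0.70 in R141C cells (adjusted p = 0.0557) and rose by 0.81 in wild-type cells (adjusted p = 0.0276). In wild-type cells Arnt2 rose by 1.23 (adjusted p = 0.0333) and P4htm fell by 1.19 (adjusted p = 0.0255), and in R141C cells their changes were -0.60 and -0.63 (adjusted p = 0.258 and 0.185).

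Further genes reported as hypoxia-induced were more often called higher than lower. Of 33 tested, 9 were higher and 1 lower at day 6 in R141C cells, where 7.59% of all genes were higher and 8.07% lower. In wild-type cells 12 were higher and 3 lower, where 11.1% of all genes were higher and 12.9% lower. Rora, a nuclear receptor, rose by 3.64 in R141C cells (adjusted p = 0.00196) and 3.04 in wild-type cells (adjusted p = 0.00238) on the log2 scale. Flt1, a VEGF receptor that is also an endothelial gene, rose by 2.19 in R141C cells (adjusted p = 0.0364) and by 3.28 in wild-type cells (adjusted p = 0.00701). Pgm1, a phosphoglucomutase that links glycogen to glycolysis, rose by 3.06 in R141C cells (adjusted p = 0.00506) and 2.51 in wild-type cells (adjusted p = 0.00657). Adm, the vasodilator peptide adrenomedullin, changed by 1.44 in R141C cells (adjusted p = 0.176) and rose by 3.04 in wild-type cells (adjusted p = 0.0157).

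Genes for the entry of pyruvate into mitochondria were lower or did not pass. Of 9 tested, 0 were higher and 2 lower at day 6 in R141C cells, and 0 were higher and 3 lower in wild-type cells. Mpc1, a subunit of the mitochondrial pyruvate carrier, fell by 1.37 in R141C cells (adjusted p = 0.0274) and by 1.31 in wild-type cells (adjusted p = 0.0234). Pdhb, a subunit of pyruvate dehydrogenase, fell by 0.87 in R141C cells (adjusted p = 0.0243) and by 0.69 in wild-type cells (adjusted p = 0.037). Pdha1, its partner subunit, had a change of -0.60 in R141C cells (adjusted p = 0.117) and fell by 0.84 in wild-type cells (adjusted p = 0.0333). Of 7 pentose phosphate pathway genes, 1 was higher and 0 lower in R141C cells, and 1 was higher and 1 lower in wild-type cells. For both lists, the shares over all genes were 7.59% higher and 8.07% lower in R141C cells. In wild-type cells they were 11.1% higher and 12.9% lower. Pgls rose by 0.90 in each genotype (adjusted p = 0.044 in R141C cells and 0.0325 in wild-type cells). Rpe changed by -0.61 in R141C cells (adjusted p = 0.149) and fell by 0.96 in wild-type cells (adjusted p = 0.0333).

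The genotypes were next compared within each day. At day 6, 0 of the 37 genes passed in R141C against wild type by limma, where 0.0657% of all genes did (0.027% higher and 0.0386% lower), and 0 of the 37 had an unadjusted p under 0.05. Over the 25892 genes tested, 2214 had an unadjusted p under 0.05. The smallest adjusted p among the 37 genes was 0.608. The median log2 difference of the set was 0.14, against 0.07 over all genes. In R141C 25 of the 37 genes were higher, against 15025 of the 25892 genes tested. After quantile normalization the median of the set turned to -0.02, with 17 of its genes higher. R141C and wild-type arrays did not overlap in 19 of the 37 genes, against 44.3% of all genes. At day 0, 0 of the 37 genes passed, where 0% of all genes did. An unadjusted p under 0.05 was held by 3 of the 37, against 1163 of the 25892 genes tested. The median difference was -0.04, against 0.01 over all genes, and arrays did not overlap in 10 genes, against 28.7% of all genes. The day 0 median was 0.18 without wild-type replicate 2 and -0.18 without wild-type replicate 1.

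The intervals show which differences these arrays could not tell from 0. At day 6 the difference of Vegfa was 0.09 (95% interval -1.28 to 1.46), that of Bnip3 0.18 (-0.91 to 1.27), that of P4ha1 0.50 (-0.48 to 1.48) and that of Pgk1 0.15 (-0.46 to 0.76). A change of 2-fold, which is 1 on the log2 scale, lies inside the first 3 of these intervals. Slc2a3 was higher in R141C at both days without overlap. Its log2 signal was 7.20 and 7.63 in R141C cells, against 6.86 and 6.84 in wild-type cells at day 6, and 6.78 and 7.28 in R141C cells, against 6.21 and 6.18 in wild-type cells at day 0. The differences were 0.57 at day 6 (adjusted p = 0.608) and 0.83 at day 0 (adjusted p = 1), so neither passed. Among the 37 genes the largest differences in size were Car9 at day 6 (-0.98, adjusted p = 0.688) and Pdk1 at day 0 (-1.04, adjusted p = 1), the gene with the widest replicate gap.

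**Figure D5:**
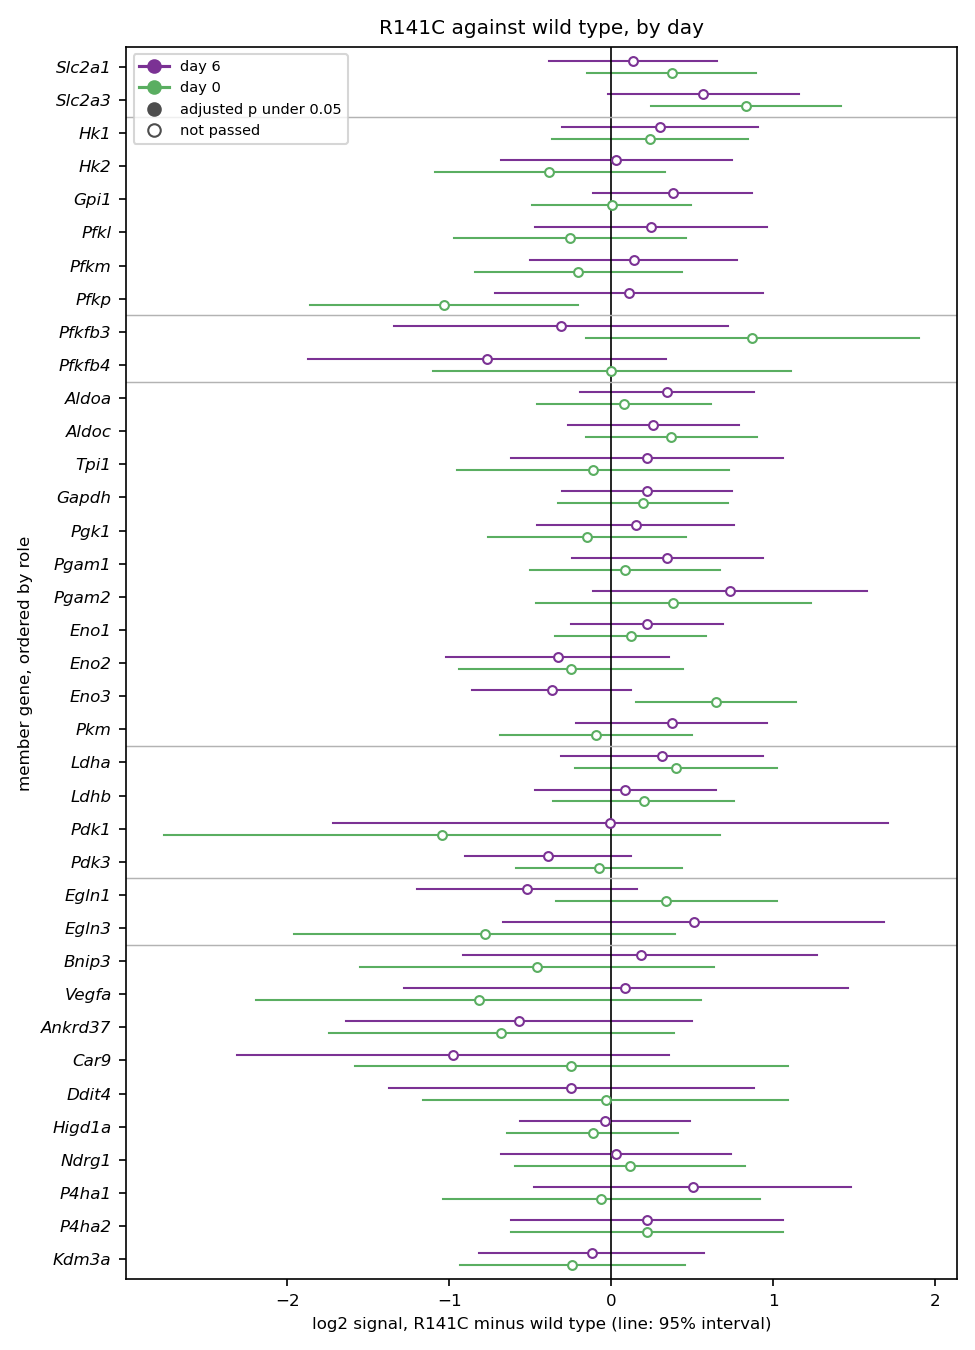
Log2 difference of R141C minus wild type (across) for each gene (down the page), at day 6 above day 0, with lines for 95% intervals. All points are open, as none had an adjusted p under 0.05, and they lie between -1.04 and 0.87.

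Whether the genotypes responded differently to differentiation was tested in the same model, as the genotype effect at day 6 minus that at day 0. Of the 37 genes 0 passed, where 0% of all genes did. An unadjusted p under 0.05 was held by 1 of the 37, against 1459 of the 25892 genes tested. The response of Egln3 to differentiation differed by 1.29 between the genotypes (95% interval -0.37 to 2.95, adjusted p = 0.913) and that of P4ha1 by 0.56 (-0.83 to 1.95, adjusted p = 0.934). Genes that passed in 1 genotype only, among them Pfkfb4 (-0.77, adjusted p = 0.924), Aldoa (0.27, adjusted p = 0.937) and Gpi1 (0.38, adjusted p = 0.923), were therefore not shown to respond differently in the other.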

How the data were processed

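Glycolysis and hypoxia response genes were measured in 8 mouse ES cell samples on 1-colour Agilent arrays, with 300 ng of RNA per labelling per the labels' protocols. Per the file headers, the authors' scanner files came from Agilent Feature Extraction 11.5.1.1, while the submitters' processing notes name 10.5.1.1. The deposited processed signal holds linear intensity values, background-subtracted and not normalized between arrays. The deposited mean signal and median background are uncorrected intensity values, and the deposited spot flags are 0 or 1. The deposited series matrix holds log2 values with column medians of 8.986 to 9.038. Against the log2 processed signal of its own array, each column gave r of 0.99953 to 0.99988, so the scale is log2, while its normalization and filter are not given in the sources used here.

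Control spots and outlier flags (131 to 251 per array) were left out, no spot was saturated, and 98 probes had no spot left on some array. After averaging the spots of a probe, each array's 75th percentile was subtracted from its log2 processed signals. Probe names came from the files and RefSeq gene names, which replaced those of 2032 of 55681 probes, and a gene was read from its probe with the highest mean signal. Testing required that this probe be well above background in both replicates of some group. limma 3.58.1 in R 4.3.3 fitted 4 group means to all 8 arrays, with 4 residual and 2.71 prior degrees of freedom, two-sided tests and Benjamini-Hochberg adjustment over 25892 genes in each comparison. A fold against a group not well above background is a lower bound against the lowest signal of bright probes. Promoter windows are RefSeq's and were searched in Python 3.11.15, with plots by matplotlib 3.10.9. Protein sequences were not used here.

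The members, lists and rules were chosen with earlier results of these data known. All 37 genes are named. Values on every array are given for the 10 largest called changes in each day comparison, for replicates that differ by over 2 and for genes whose probes differ in sign; from each further list up to 4 called genes with the largest wild-type change are named. The result of 1 gene that the rule named is not reported here. Replicate numbers were shared by the groups, but the deviations of same-numbered samples correlated at only -0.136 to 0.339, so the samples were not treated as paired. Other settings tried were a median shift, quantile normalization, normexp correction (offset 50), the deposited matrix, keeping dim probes, requiring all 8 arrays above background, trend and robust eBayes, the mean of probes, only the arrays compared, a replicate block and each array left out. Each further probe of a gene and crossed replicate numbers at day 0 were chosen after seeing the data.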

Additional observations from a re-analysis of the deposited data

Results flagged for a closer look

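The genotype effect pointed in opposite directions at the 2 days for 2 genes, with no overlap between the R141C and wild-type arrays at either day. Over all genes tested, these arrays did not overlap in 44.3% at day 6 and in 28.7% at day 0. The share of all genes with opposite directions and no overlap at both days was not counted. Eno3, the muscle enolase, had a log2 signal of 4.19 and 4.40 in R141C cells, against 4.66 and 4.66 in wild-type cells at day 6. At day 0 Eno3 was at 3.74 and 3.99 in R141C cells, against 3.35 and 3.09 in wild-type cells. The difference of the genotype effect, day 6 minus day 0, was -1.01 (95% interval -1.71 to -0.32, adjusted p = 0.758 by limma) and lay between -1.14 and -0.88 over 17 alternatives. Egln1 was at -0.99 and -0.87 in R141C cells, against -0.08 and -0.73 in wild-type cells at day 6, and at -3.41 and -2.90 in R141C cells, against -3.52 and -3.47 in wild-type cells at day 0. Its difference of the genotype effect was -0.86 (95% interval -1.82 to 0.10, adjusted p = 0.886 by limma) and lay between -1.19 and -0.53 over 17 alternatives. Neither passed after adjustment over all genes. Both genes were picked by these same values, so the intervals and the ranges over alternatives add no support.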

How the results depend on the processing

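In R141C cells the count of genes called at day 6, 18 of 37, was 12 to 18 under 9 other settings and 6 to 16 with 1 array left out: 6 without R141C replicate 1 at day 0, 10 without R141C replicate 2 at day 0 or R141C replicate 1 at day 6, and 11 without R141C replicate 2 or either wild-type replicate at day 6. In wild-type cells the count of 17 was 13 to 19 under 9 other settings and 6 to 16 with 1 array left out: 6 without wild-type replicate 1 at day 6, 8 without wild-type replicate 2 at day 6, 8 without wild-type replicate 1 at day 0 (7 higher, and Pdk1 lower), and 11 without either R141C replicate at day 0. Leaving out an array leaves fewer degrees of freedom, and the lone array of a group is assumed to vary like the other groups. Calls held under all 18 alternatives for 6 of 18 genes in R141C (Aldoc, Egln1, Egln3, Bnip3, Ndrg1 and P4ha1) and 5 of 17 in wild type (Aldoc, Eno3, Egln1, Ndrg1 and P4ha1), and no called change turned its sign. With the replicate number as a block the counts were 15 in R141C, where Gpi1, Pgam2 and Ddit4 no longer passed, and 17 in wild type. Crossed replicate pairs gave 0 calls between the genotypes at day 0. None of the 37 genes passed between the genotypes, or in the difference between days, under any alternative run, with 2 arrays a group.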
